A study of Mus musculus with 8 samples.

Results

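Fgf9, Fgf10, Dusp6 and Sulf2 were the 4 genes examined here, each named at a region of changed histone H3 lysine 27 trimethylation (H3K27me3) in mouse intestinal crypts. They were chosen because the authors' deposited table of changed regions names them in its annotation, together with any other listed region within 100 kb. This gave 8 of the 378 listed regions, of which 6 named one of the genes and 2 continued the run at Sulf2 without a gene name. The regions were thus selected on the FDR (false discovery rate) of the DKO and control comparison, at most 0.05, and their changes are described and not tested. Chromatin digested with micrococcal nuclease was immunoprecipitated for H3K27me3 and sequenced, from jejunal epithelial cells of the crypts of female mice. There were 4 samples of the genotype labelled Control/WT and 4 labelled Kdm6a/Kdm6b knockout (double knockout, DKO), all taken 7 days after ablation. The sources used here give no strain, no age, no driver of the deletion and no inducing agent, and do not say whether each sample came from a separate animal. The table has 1 line per region for the comparison as a whole. Library depth, the level of the mark in a sample and the spread between the 4 samples of a group are unknown. The labelled cell type could therefore not be checked against marker levels.

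Fibroblast growth factors (FGFs) are secreted ligands that bind receptor tyrosine kinases together with heparan sulfate, a sulfated sugar chain on cell-surface and matrix proteins. The receptors signal through RAS and the kinase ERK, and ERK activity induces its own inhibitors, among them the phosphatase DUSP6. SULF2 is an extracellular sulfatase that trims sulfate groups from heparan sulfate and so alters which ligands it holds. In the developing gut FGF10 is a ligand of the mesenchyme that acts on the epithelium, and FGF9 is known for promoting growth of the mesenchyme. H3K27me3 is laid down by Polycomb repressive complex PRC2 at silent genes and is removed by the demethylases UTX and JMJD3, the products of Kdm6a and Kdm6b.

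The start sites of all 4 genes in RefSeq (GRCm38.p6, the same build as mm10) lay inside the regions that name them. The 250 bases before each start are shown because they are the stretch of promoter that the changed regions cover at every locus. They lie at chr14:58072436-58072685 (plus strand) for Fgf9, chr13:118714449-118714698 (plus strand) for Fgf10, chr10:99262981-99263230 (plus strand) for Dusp6 and chr2:166155684-166155933 (minus strand) for Sulf2. The capitals mark CG dinucleotides, the sites of DNA methylation and a sequence feature of many Polycomb targets.
Fgf9: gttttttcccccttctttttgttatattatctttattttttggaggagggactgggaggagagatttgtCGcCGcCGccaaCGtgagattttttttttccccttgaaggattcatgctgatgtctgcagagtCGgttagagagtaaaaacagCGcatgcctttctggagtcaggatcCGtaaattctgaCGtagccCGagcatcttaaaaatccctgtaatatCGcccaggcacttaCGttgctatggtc
Fgf10: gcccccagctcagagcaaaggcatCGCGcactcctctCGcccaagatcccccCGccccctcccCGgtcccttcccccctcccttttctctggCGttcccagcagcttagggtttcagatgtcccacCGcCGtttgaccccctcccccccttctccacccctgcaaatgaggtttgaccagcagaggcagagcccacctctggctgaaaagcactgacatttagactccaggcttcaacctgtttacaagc
Dusp6: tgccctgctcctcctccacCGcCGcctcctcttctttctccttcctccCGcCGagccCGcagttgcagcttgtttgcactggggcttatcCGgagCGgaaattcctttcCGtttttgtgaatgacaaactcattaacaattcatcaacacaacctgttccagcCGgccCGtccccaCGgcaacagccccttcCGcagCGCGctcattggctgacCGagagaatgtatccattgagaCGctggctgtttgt
Sulf2: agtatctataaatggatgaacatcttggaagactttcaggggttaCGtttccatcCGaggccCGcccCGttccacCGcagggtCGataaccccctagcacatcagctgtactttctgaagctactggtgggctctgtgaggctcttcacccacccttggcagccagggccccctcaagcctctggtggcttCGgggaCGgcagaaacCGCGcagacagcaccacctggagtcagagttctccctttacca
The printed stretches held 11 CG dinucleotides at Fgf9, 8 at Fgf10, 16 at Dusp6 and 10 at Sulf2.

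The 4 genes did not share a direction. Fgf9 and Sulf2 lay at regions the authors' deposited table calls up, and Fgf10 and Dusp6 at regions it calls down. Of the 8 regions, 6 were up and 2 were down. The table implies 58963 regions tested, of which 0.641% were called, 0.438% up and 0.204% down. These shares are the background of the selection that put the 4 genes here, and nothing is read from the members' count against them. The table does not name its reference group, and up means a gain in DKO only under the convention most such tables follow. More of the mark per cell and more cells carrying it cannot be told apart in bulk chromatin.

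The ligand gene Fgf9 (chromosome 14, 58070671 to 58112854, plus strand) had 1 up region at its promoter end, at 58068251 to 58081500. The authors' deposited table gives it 0.82 on the log2 scale, or 1.77-fold, with a p-value of 1.08e-04 and an FDR of 0.0279. This placed it low among the up regions, at rank 249 of 258 by size of change. The region ran from 4.44 kb before the start site to 8.81 kb after it. The start site used here, 58072686, is that of the RefSeq promoter entry and lies 2015 bp inside the RefSeq gene model, so the printed Fgf9 stretch lies within the model and the region began 2.42 kb before the model's first base. It covered 25.7% of the 42.2 kb gene body, and the remaining 31.4 kb towards the end of the gene lay outside any listed region. The authors' deposited table gives promoter and exon overlap here, with a further annotated Fgf9 feature 1701 bp to the right. Of its 64 windows 42 were counted as up and 0 as down. How a window came to be counted is not stated, and the other 22 may also have changed.

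The ligand gene Fgf10 (chromosome 13, 118714699 to 118792573, plus strand) had 1 down region with a similar position on the gene, at 118710001 to 118726000. The authors' deposited table gives it -0.85 on the log2 scale, or 0.55-fold, with a p-value of 6.27e-05 and an FDR of 0.0207. By size of change it ranked 81 of 120 down regions. The region ran from 4.70 kb before the start site to 11.3 kb after it and covered 14.5% of the 77.9 kb gene body. A minority of its windows was counted, 36 of 82 as down and 0 as up. That share, 43.9%, was the lowest of the 8 regions. The 2 ligand genes were thus both marked at the promoter end, over 13.25 and 16 kb, with opposite signs. No error of either change is given in the table, so the size of the difference between them was not tested.

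Dusp6, which encodes the dual-specificity phosphatase that inactivates ERK, is a short gene (chromosome 10, 99263231 to 99267489, plus strand), and its down region covered all of it. The region lay at 99261001 to 99268000, with 2.23 kb before the start site and 0.511 kb past the end of the gene. In the authors' deposited table its change was -1.01 on the log2 scale, or 0.50-fold, with a p-value of 8.07e-05 and an FDR of 0.0229. It ranked 30 of 120 down regions by size of change, above Fgf10. At 7 kb this was the narrowest of the 8 regions, and 23 of its 28 windows (82.1%) were counted as down and 0 as up. RefSeq places the long noncoding RNA gene Gm34921 across the end of Dusp6, and 1137 bp of it lay in the region. The change cannot be divided between the 2 genes there.

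Sulf2 (chromosome 2, 166073899 to 166155683, minus strand) carried 5 of the 8 regions, all up. They formed a run of 135 kb, from 166105001 to 166240000, and covered 133 kb of it. The regions are called A to E here from the inside of the gene outward. Neighbours B and C, C and D, and D and E overlapped by 1500 bp each and so share bases, while A and B were 2000 bp apart. The regions of the run are therefore not independent observations of Sulf2.

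Region A, at 166105001 to 166122500, lay wholly inside the gene, 33.2 to 50.7 kb after the start site, and the table gives it exon overlap without a promoter. It had the largest change of the 8 regions in the authors' deposited table, with a log2 fold change of 1.21 (2.32-fold), a p-value of 1.57e-07 and an FDR of 2.65e-04. It ranked 19 of 258 up regions by size of change and 35 of 378 regions by p-value. Of its 89 windows, 59 were up. The noncoding RefSeq gene Gm52534 (166120207 to 166122532) overlapped it by 2294 bp.

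Region B, at 166124501 to 166154000, covered the gene from 1.68 to 31.2 kb after the start site, with a log2 fold change of 0.99 (1.98-fold, FDR 0.0164) in the authors' deposited table. It had the highest share of counted windows of the 8 regions, 139 of 156 or 89.1%. Region C, at 166152501 to 166182500, held both RefSeq start sites of Sulf2, 166155683 and 166155285, and reached 26.8 kb upstream. The authors' deposited table gives it 0.97 on the log2 scale (1.96-fold, FDR 0.00399), with 134 of 168 windows up. The table gives promoter overlap for B as well as C, although both RefSeq start sites lie in C. Promoters of other transcripts in the authors' annotation were not examined.

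Regions D and E lay entirely upstream of Sulf2 and carried no gene name in the table. Region D, at 166181001 to 166211500, lay 25.3 to 55.8 kb before the start site, with a log2 fold change of 0.89 (1.85-fold) in the authors' deposited table. Its FDR of 0.0432 was the highest of the 8 regions and the nearest to the table's limit of 0.05. Of its 161 windows 116 were up. Region E, at 166210001 to 166240000, lay 54.3 to 84.3 kb before the start site, with a log2 fold change of 1.03 (2.04-fold, FDR 0.0208) in the authors' deposited table and 101 of 172 windows up. RefSeq places the noncoding genes Gm30320, across C and D, and Gm30536, within D, in this upstream stretch. No protein-coding gene other than Sulf2 overlapped the run. Ncoa3, which encodes a nuclear receptor coactivator, lay 31.8 kb from one end and the predicted gene Gm30733 37.7 kb from the other, and the table names neither.

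**Figure D1:**
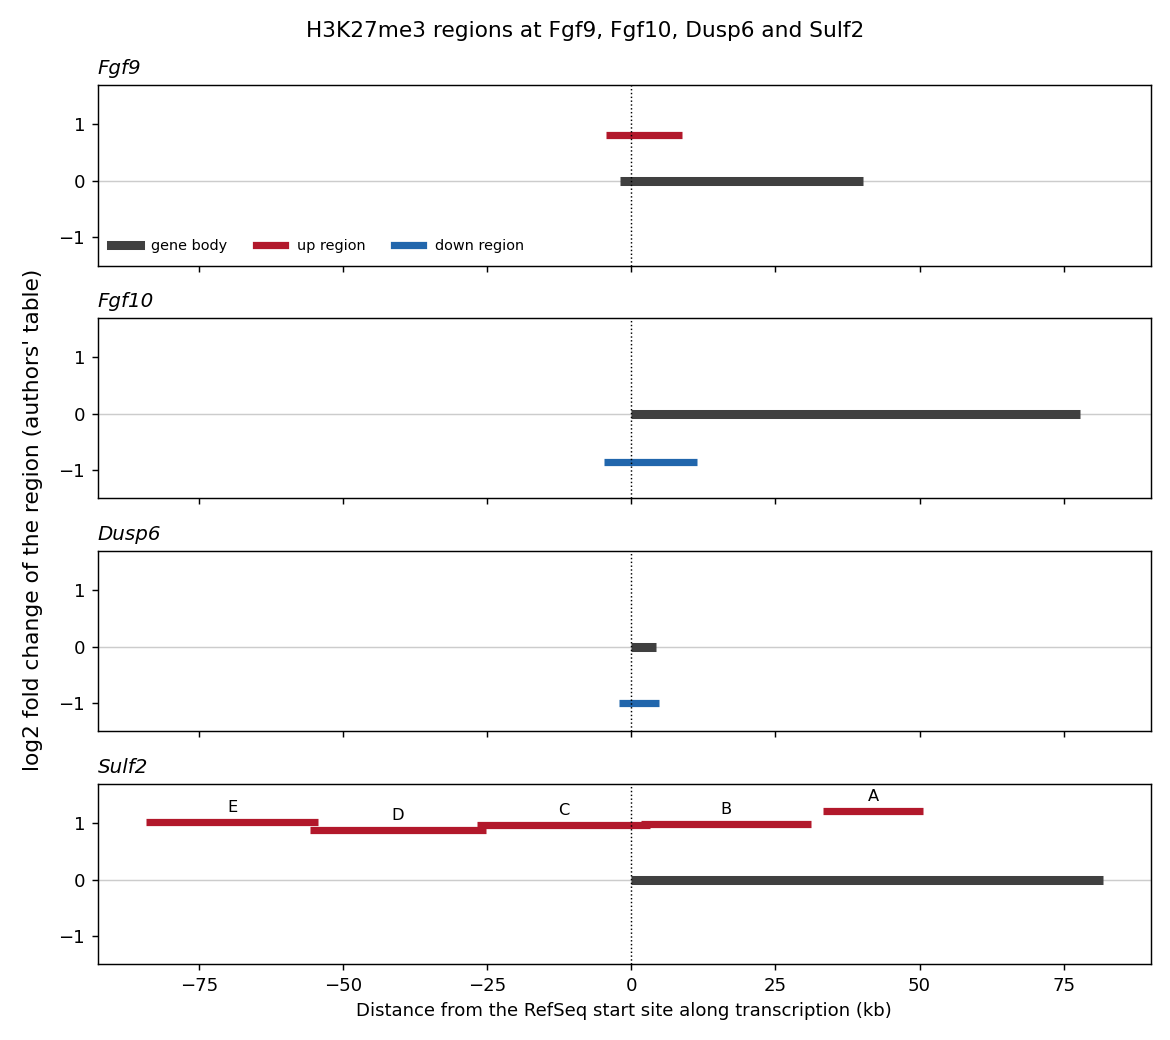
Each panel plots the listed regions at 1 gene against distance from its RefSeq start site along transcription (kb), at the height of the region's log2 change as the authors' deposited table gives it. Black bars are gene bodies, red bars up regions and blue bars down regions. The regions at Fgf9, Fgf10 and Dusp6 sit at the start site, whereas the Sulf2 run A to E extends from 50.7 kb inside to 84.3 kb upstream.

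The up signal at Sulf2 thus had another shape than the region at Fgf9. At Fgf9 2.42 kb upstream of the gene model and 10.8 kb of the gene were covered, and at Sulf2 84.3 kb upstream and 48.7 kb (59.5%) of the gene. In both genes the end of the body, about 31 kb (31.4 kb at Fgf9 and 31.1 kb at Sulf2), was outside the listed regions. The table lists regions past its limit only, so an unlisted stretch may hold the mark, or a smaller change, without appearing.

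Joined within 100 kb, the 378 regions of the table formed 299 runs, of which 243 were single regions and 56 held 2 or more. In all 56 of the longer runs the regions had 1 direction. The Sulf2 run was one of 3 with 5 regions, the most in any run. The others with 5 lay at Epb41l1, over 120 kb, and at Tle3, over 173.5 kb. In span, 3 runs were longer than that at Sulf2. Regions B to E were 29.5 to 30.5 kb wide, and no listed region was wider than 31.5 kb. The number of regions in a run thus depends on how a stretch is divided in the table. Why the run is listed as separate regions was not tested.

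**Figure D2:**
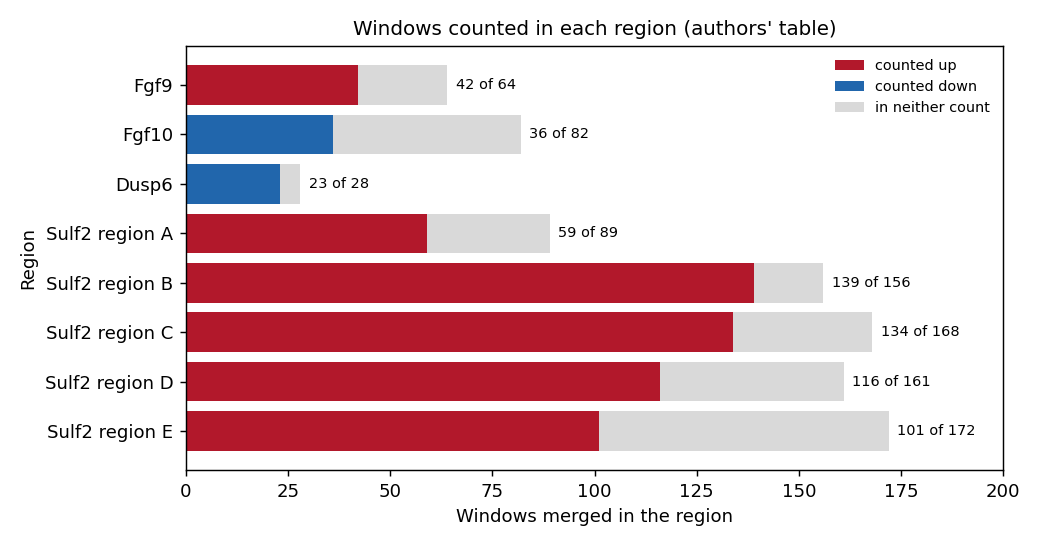
Bars give the number of windows merged in each of the 8 regions of the authors' deposited table, coloured red where counted up, blue where counted down and grey where in neither count. The counted share runs from 36 of 82 at Fgf10 to 139 of 156 in Sulf2 region B, and no region holds windows of both directions.

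No region of the 4 loci held windows of both directions, as was the case for all but 2 of the 378 regions. In the authors' deposited table the median size of change over the 8 regions was 0.98 on the log2 scale, beside 0.94 in the whole table. That median counts Sulf2 5 times, and the changes at Fgf9, Fgf10 and Dusp6 were 0.82, -0.85 and -1.01. The median width was 23.5 kb, beside 13.4 kb in the whole table, a value set by the 5 overlapping or adjacent pieces of Sulf2. The counted share of windows had a median of 69.2%, beside 71% in the whole table, and it too counts the 5 pieces of Sulf2 separately. A promoter was overlapped by 5 of the 8 regions (62.5%), beside 189 of 378 (50%). The rule picked regions by a gene name, while 96 of the 378 have no gene, and the 5 include the overlapping Sulf2 regions B and C. Nothing is therefore read from the difference between these shares.

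**Figure D3:**
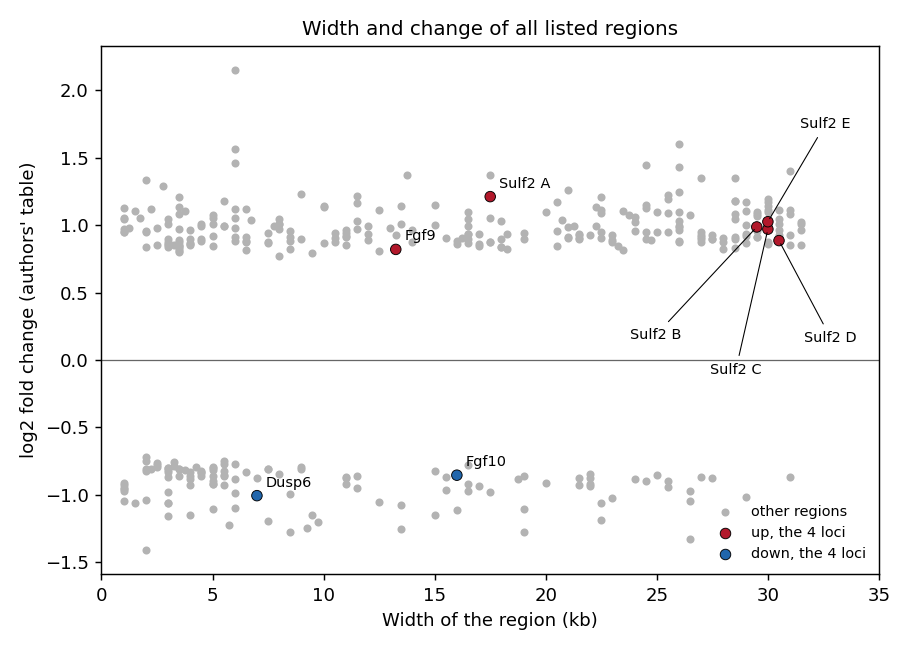
Each point is 1 of the 378 regions, by width (kb) and log2 change, both from the authors' deposited table, with red and blue points for the up and down regions of the 4 loci. Fgf9 lies at the lower edge of the up regions (0.82), Sulf2 A above most of them (1.21), and Sulf2 B to E between 29.5 and 30.5 kb wide.

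The table names no sets of windows. Its index of the representative window was split at a large gap into 2 ranges, in each of which it follows the chromosomes. These ranges are read here as 2 sets of windows. The representative windows of 6 regions came from the first set, and those of Dusp6 and of Sulf2 region E from the second. Regions made of a single window were 2 kb wide in the first set (3 regions) and 1 kb wide in the second (12 regions). The values at Dusp6 and at region E were thus taken from a window set whose single-window regions were narrower.

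Beyond the 100 kb used to join regions, the nearest other listed region was 11.96 Mb away at Fgf9 and 6.61 Mb at Fgf10. It was 5.57 Mb away at Dusp6 and 6.78 Mb at Sulf2. Each of these was up, as were 258 of the 378 listed regions. Single regions made up 243 of the 299 runs, and the usual distance between runs was not computed. The distances are therefore not read as particular to these loci. The protein-coding genes next to each locus were Micu2, a regulator of mitochondrial calcium uptake, 69.0 kb from the Fgf9 region, Poc1b, a centriole protein gene, 62.9 kb from Dusp6, and Mrps30, a mitochondrial ribosome gene, 323 kb from Fgf10. None of them was named in the table.

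Of 136 genes in 8 lists of the FGF, ERK and heparan sulfate pathway, 2 lay at up regions (Fgf9 and Sulf2), 2 at down regions (Fgf10 and Dusp6) and 132 at neither. A gene counted if the table listed it as overlapped by a region or as lying within 5 kb of one. Over the genome, the RefSeq bodies of 231 of 21631 protein-coding genes (1.07%) overlapped a listed region, and by that measure 5 of the 136 list genes did. The counts by list are of genes named in the table, which is another measure. By gene bodies the list of 10 receptor and coreceptor genes holds Flrt1. The other lists without a named gene, of 13 to 26 genes, hold 0 by either measure, which is near the share of 1.07%. The 4 named genes were known to be at listed regions when the lists were made. Nothing particular to a list is therefore read from its count, that of the FGF ligands (2 of 22) included. Of 22 FGF ligand genes, Fgf9 was up, Fgf10 was down and 20 were at no listed region. None of the 10 receptor and coreceptor genes, which include Fgfr1 to Fgfr4 and the klotho genes, was named. Nor was any of the 23 genes of the RAS-ERK cascade.

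Of 17 ERK feedback inhibitor genes Dusp6 was named, a list that also holds the Sprouty and Spred genes and 6 further Dusp genes. None of the 14 ERK response transcription factor genes, such as Etv4, Etv5 and Egr1, was named. Among the heparan sulfate genes, Sulf2 was named of 11 that edit or degrade the chain, and its paralogue Sulf1 was not named. The 26 synthesis genes, including Ext1 and the Ndst and Hs6st sulfotransferases, and the 13 proteoglycan core protein genes, the syndecans and glypicans among them, had 0 named members. That the table does not name a gene does not show that its H3K27me3 was the same in both groups.

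The promoters of the 4 genes differed in base composition. Counted over the 300-base windows (250 bases before to 50 after the start), Dusp6 held 19 CG dinucleotides, Fgf9 12, the upstream start of Sulf2 12 and Fgf10 10. The median over 32851 RefSeq promoters was 7. Dusp6 had as many as or more than 73.5% of them, Fgf9 and the upstream start of Sulf2 62.1%, and Fgf10 58.6%. The second start of Sulf2 held 26, as many as or more than 84.5%.

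Observed over expected, which corrects for the amounts of C and G, the CpG ratio was 0.88 at Fgf9, 0.80 at Dusp6, 0.49 at the upstream start of Sulf2, 0.92 at its second start and 0.39 at Fgf10. The median of all promoters was 0.38. Fgf9 combined a high ratio with a low G and C content, 42.7% against a median of 52.7%. Fgf10 was the reverse, with 60.7% G and C and a ratio near the median. With the upstream start of Sulf2, the 2 genes at up regions and the 2 at down regions were thus not separated by either measure. With its second start the ratios at the up genes (0.88 and 0.92) were both above those at the down genes (0.80 and 0.39). G and C content separated them with neither start. With 2 genes on each side this was not tested. Promoters of genes that the table gives promoter overlap had medians of 13.5 CG in up regions (140 promoters) and 22 in down regions (67 promoters). Fgf9 (12) and the upstream start of Sulf2 (12) lay below the first, and the second start of Sulf2 (26) above it. Fgf10 (10) and Dusp6 (19) lay below the second.

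The hexamer CCGGAA, a core of the sites bound by ETS transcription factors through which ERK acts on many of its target genes, was searched on both strands. It was in none of the 5 windows of the 4 genes, and 14.9% of all RefSeq promoters held it. The result says only that these letters are not in these windows.

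**Figure D4:**
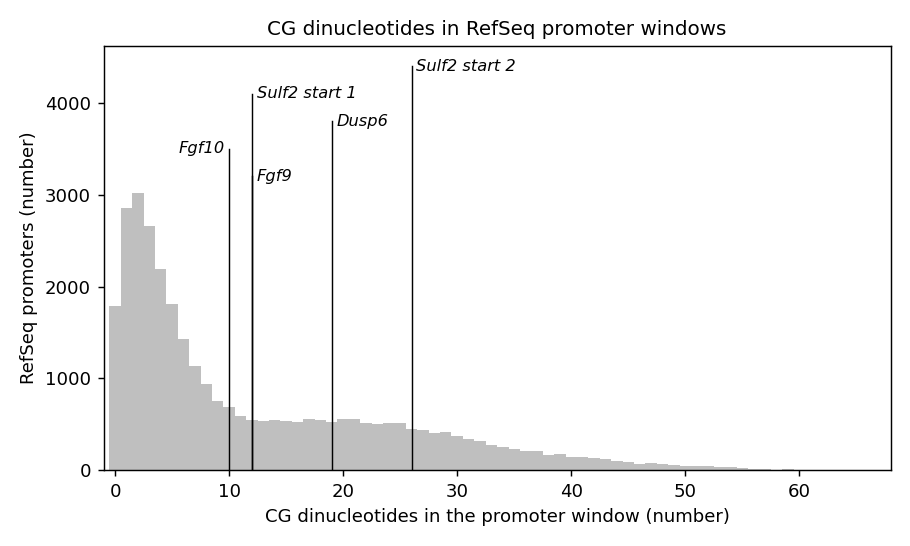
Grey bars count RefSeq promoter windows of 300 bases by their number of CG dinucleotides, and vertical lines mark the windows of the 4 genes, with 2 start sites for Sulf2 (line heights carry no value). The 5 lines run from 10 at Fgf10 to 26 at the second Sulf2 start, all above the median of 7 over all RefSeq promoters. The medians for promoters in listed regions were higher, 13.5 in up and 22 in down regions.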

How the data were processed

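The submitters' processing notes name build mm10, edgeR (without a version), SICER 1.0.3, Bowtie 0.12.7, Picard 1.141, SAMtools 1.11 and FastQC 0.10.1, with neither order nor settings. The 8 samples, 4 per group by title, were deposited as 1 table of the authors' comparison, with csaw-style headers and 0 columns of per-sample values, so depth is unknown and no count could be refitted. Per the file headers it gives counts of windows per region, a p-value and FDR, and the log2 fold change of a representative and a best window. These are the authors' values, and the fold printed beside each is 2 to its power. In the annotation, P was taken as promoter, E as exon and I as intron. Rows held up to 21 cells for 17 columns, so all cells from the overlap field on were read as annotation.

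The members and gene lists were chosen with earlier results of these data known. Python 3.11.15 and matplotlib 3.10.9 were used. Benjamini-Hochberg adjustment of the authors' p-values over 58963 tests returned their FDR values to within a relative difference of 5.7e-15. That code was first tested on simulated data. Gene positions and promoters came from RefSeq (GRCm38.p6), where all 136 list genes matched by symbol. The text names the 4 genes, genes in their runs and list genes at listed regions, plus neighbouring protein-coding genes and list members given as examples. Alternatives were the best window, FDR 0.01, changes of at least 1 in size on the log2 scale, other joining distances (10 kb, 1 Mb) and other rules for placing a gene at a region. The tests planned for counts per sample could not be run.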

Additional observations from a re-analysis of the deposited data

How the results depend on the processing

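In the authors' deposited table, the log2 fold change of the best window kept the sign of the representative window in all 8 regions. It was equal in Sulf2 regions A and D and otherwise moved by at most 0.126, to 0.84 at Fgf9, -0.88 at Fgf10, -0.99 at Dusp6, and 0.95, 1.04 and 0.90 in Sulf2 regions B, C and E. At FDR 0.01 only 2 of the 8 regions were left, Sulf2 A and C, and 1 of the 4 genes. A change of at least 1 in size on the log2 scale was met by 3, Dusp6 and Sulf2 A and E, and by the best window Dusp6 and Sulf2 E fall below 1 while Sulf2 C is above it. The number of regions stayed at 8 with the overlap field only and when joined within 10 kb or 1 Mb. The number of list genes stayed at 4 under overlap only and under any flanking distance, and was 5 when RefSeq gene bodies were used, an alternative chosen after the data were seen. No paired analysis was possible because the table holds no value per sample, and leaving out replicates, DESeq2 and filters on low counts were not run for the same reason. Depth behind any value is unknown.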

Other observations

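Flrt1, a receptor-interacting membrane protein gene of the FGF pathway, was not named in the table, but its RefSeq body (chromosome 19, 7087464 to 7166183) overlapped a listed up region at 7124001 to 7147000. The authors' deposited table gives that region to an intron of Macrod1, at 0.87 on the log2 scale, an FDR of 0.033 and 33 of 121 windows up. RefSeq places Flrt1 inside the span of Macrod1, so the region cannot be given to one of them.

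Including Flrt1, 6 list genes other than the 4 had a listed region within 100 kb without being named. They were chosen after the distances were seen. Glce, which encodes the epimerase of heparan sulfate synthesis, lay 24.7 kb from an up region at Paqr5. The authors' deposited table counts 138 of its 138 windows as up and gives it a log2 change of 1.12, at an FDR of 5.24e-05. The ERK-activated kinase gene Rps6ka3 lay 14.8 kb from an up region at Eif1ax (0.88 on the log2 scale, FDR 0.0369, authors' deposited table). The ligand gene Fgf23 lay 59.2 kb from an up region at Ccnd2 (0.93, FDR 0.0343) and Fgf17 68.2 kb from one at Hr (0.90, FDR 0.023), both on the log2 scale of the authors' deposited table. Nras lay 61.8 kb from a down region at Sike1, which the authors' deposited table gives -0.83 on the log2 scale (FDR 0.0369). With the 4 genes, 7.35% of the 136 list genes had a listed region within 100 kb, beside 4.97% of 21631 protein-coding genes. The 4 were known to be there when the lists were made, so the first share is a description. The median distance to a listed region was 2.22 Mb for the list genes and 2.36 Mb for all protein-coding genes.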
